A study of Mus musculus with 2 samples.

Results

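Chemokines are small secreted proteins that steer the movement of leukocytes through receptors on the cell surface. The CC and CXC families are named for the spacing of their first cysteines, and many of their genes lie side by side in clusters on the chromosome. In the brain, microglia both make and sense chemokines. Some of these genes are transcribed steadily in resting cells, and others are switched on within minutes to hours by inflammatory signals.

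Here 9 chemokine genes were followed in single microglia: Ccl2, Ccl3, Ccl4, Ccl6, Ccl7, Ccl9, Ccl12, Cxcl2 and Cxcl16. They were picked by symbol and are 9 of the 31053 features in the count tables, and each symbol was found. Droplet single-cell RNA sequencing had been run on 2 libraries of sorted mouse microglia, 1 labelled WT and 1 labelled IRF8KO. Irf8 encodes a transcription factor of the macrophage lineage. Each library came from the pooled brains of 3 female C57BL/6 mice aged 3 months, isolated without enzymes, and the labels name no allele or driver for the knockout. The second sample carries IRF8KO in its title but WT in its genotype field, and is therefore called the library labelled IRF8KO. Irf8 itself was counted at 794 CPM in WT cells and at 669 CPM in cells labelled IRF8KO, a log2 ratio of -0.25. A tag at the 3′ end of a transcript does not check a deletion elsewhere in the gene.

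Levels are given in CPM, the usual scaling of a gene's UMIs to the total UMIs of the library, where a UMI marks 1 captured transcript. UMIs are read near the 3′ end and were not divided by gene length. WT cells numbered 3304 and held 18543061 UMIs, with a median of 3204.5 per cell. Cells labelled IRF8KO numbered 5007 and held 18980263 UMIs, with a median of 2933 per cell, after 98 cells with at least 2% of UMIs in 6 neutrophil genes were set aside. The libraries shared 5 cell barcodes. Each condition is 1 library, so no value has a replicate and no test was made. The intervals in brackets are exact 95% intervals and cover counting error only. At these low counts, fewer cells making a transcript and less transcript per cell cannot be told apart from the share of cells with a UMI alone. All 11 microglial markers reached 10 CPM in WT cells and 10 of 11 did so in cells labelled IRF8KO, where their summed level was 17329 CPM against 33372 CPM. Of 11 border macrophage markers, 2 reached 10 CPM in WT cells and 7 in cells labelled IRF8KO, with sums of 492 and 91339 CPM. Apoe alone made up 478 and 88320 CPM of these sums. Ms4a7, Cd163, Lyve1, F13a1 and Clec12a were at 0 in WT cells, and Lyve1 had 2 UMIs in the other library. Folr2 went the other way, at 1.73 and 0.211 CPM. Neutrophil markers summed to 2.48 and 54.6 CPM and monocyte markers to 7.98 and 23.7 CPM. Monocyte-defining Ly6c2 was at 0 in both libraries, as were Cd3d, Cd3e, Trac, Nkg7 and Gzma of T and NK cells. The part of these differences in the chemokine levels was not tested.

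Of the 9 genes, 8 reached 10 CPM in at least 1 library, and Ccl7 did not. Among those 8, Cxcl2 and Cxcl16 were at least 2-fold higher in cells labelled IRF8KO, Ccl6 and Ccl9 were at least 2-fold lower, and 4 lay between. Over all 8859 genes at 10 CPM or more, 5.61% were at least 2-fold higher and 9.28% at least 2-fold lower. The median log2 ratio of the 8 genes was 0.38, and that of all genes was -0.28. The plot of levels shows that the genes did not move as 1 block.

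**Figure D1:**
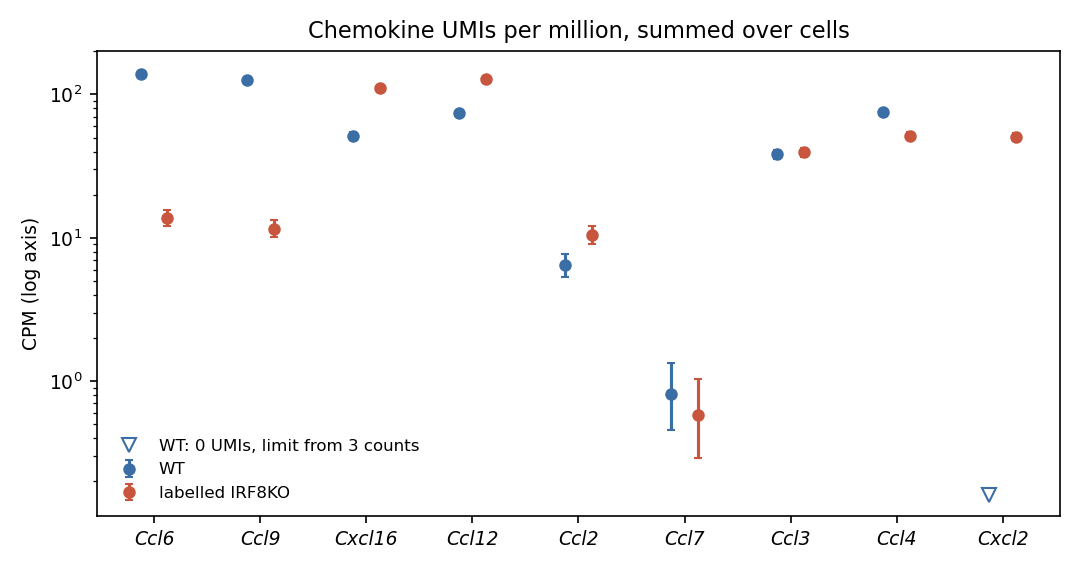
Level of each gene in CPM on a log axis, summed over WT cells (blue) and over cells labelled IRF8KO (red), 1 library each. Bars are exact 95% Poisson intervals, and the open triangle marks the limit of 0.162 CPM that 3 counts would give for Cxcl2, which had 0 UMIs in WT cells; Ccl6 and Ccl9 are the genes with the lower red points by about a factor of 10.

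Cells differ in depth, so breadth was measured after each cell had been thinned to 2000 UMIs, which left 3019 WT cells and 4509 labelled IRF8KO. The share of cells with at least 1 UMI was set beside the share that the same UMIs would give if scattered evenly over the cells (a Poisson spread). The variance-to-mean ratio of the UMIs per cell is near 1 for an even spread and grows as few cells hold more. Its median was 1.03 over 8468 genes in WT cells and 1.04 over 8170 genes in cells labelled IRF8KO. A ratio of at least 2 was found for 3 of the 6 chemokine genes with 10 CPM or more in WT cells (Ccl3, Ccl4 and Ccl12), against 0.236% of all genes. In cells labelled IRF8KO it was found for 5 of 8 (Ccl2, Ccl3, Ccl4, Ccl12 and Cxcl2), against 0.722% of all genes. The remaining genes with enough UMIs, Ccl6, Ccl9 and Cxcl16, were below 2 in both libraries.

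**Figure D2:**
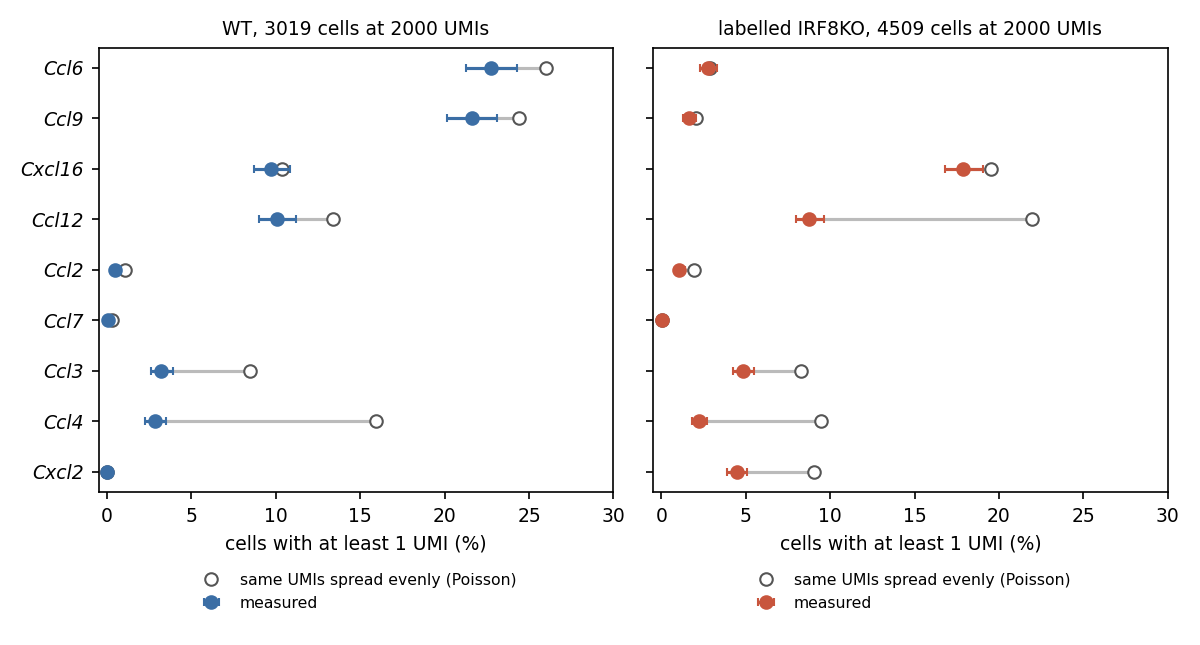
Percent of cells with at least 1 UMI of each gene after thinning to 2000 UMIs, in 3019 WT cells (left) and 4509 cells labelled IRF8KO (right). Filled points are measured shares with exact 95% binomial intervals and open points are the shares an even spread of the same UMIs would give; the gap between them is widest for Ccl4 in WT cells (2.82% against 16.0%) and for Ccl12 in cells labelled IRF8KO (8.76% against 21.9%).

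Ccl6 and Ccl9 encode CC chemokines of the macrophage inflammatory protein group that signal mainly through Ccr1. They are neighbours on the minus strand of chromosome 11, Ccl9 at chr11:83572919-83578636 and Ccl6 at chr11:83587882-83593087 (GRCm38), with 4 exons each. Since both were high in WT cells and low in the other library, the 120 bases before the start of each gene are shown (RefSeq, GRCm38.p6, minus strand, chr11:83578637-83578756 for Ccl9 and chr11:83593088-83593207 for Ccl6). Capitals mark the stretches of at least 12 bases that the windows have in common, ACCTTTGCCCTC and GCCCTCCACTTCC, which overlap in Ccl9 and lie apart in Ccl6.
Ccl9: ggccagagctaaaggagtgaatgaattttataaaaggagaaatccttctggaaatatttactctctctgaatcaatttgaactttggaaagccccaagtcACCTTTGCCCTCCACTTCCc
Ccl6: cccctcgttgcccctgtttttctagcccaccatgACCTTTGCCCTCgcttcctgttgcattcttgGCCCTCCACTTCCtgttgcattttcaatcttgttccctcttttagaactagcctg
The first stretch was found, on either strand, in 4 of 32851 RefSeq windows of 250 bases before a start and the second in 5. The Ccl9 window also holds 1 match to the AP-1 motif TGANTCA, found in 6.75% of windows. These are matches of letters and not shown sites.

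Ccl6 was counted 2565 times in WT cells, a level of 138.3 CPM (133.0 to 143.8), and 262 times in cells labelled IRF8KO, a level of 13.8 CPM (12.2 to 15.6). Ccl9 was counted 2336 times in WT cells, 126.0 CPM (120.9 to 131.2), and 220 times in the other library, 11.6 CPM (10.1 to 13.2). WT was the high library for both genes and the intervals do not overlap. The log2 ratio was -3.32 (-3.51 to -3.14) for Ccl6 and -3.44 (-3.65 to -3.24) for Ccl9, levels 10.02-fold and 10.87-fold lower. Every processing alternative left these ratios negative, between -3.40 and -3.05 for Ccl6 and between -3.75 and -3.16 for Ccl9.

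In WT cells both transcripts were spread over many cells, though less evenly than most genes. At 2000 UMIs, Ccl6 was found in 22.7% of cells (21.2 to 24.3), against 26.0% for an even spread, and Ccl9 in 21.6% (20.1 to 23.1), against 24.4%. Their variance-to-mean ratios were 1.40 and 1.47, rank 62 and rank 51 of 8468 genes, a measure that also grows with the level. The 1% of WT cells with most UMIs held 12.5% of the Ccl6 UMIs and 13.5% of the Ccl9 UMIs. It took 231 and 230 cells to reach 50% of the UMIs. At this depth most WT cells therefore had no UMI of either gene. Without thinning the shares were 39.0% and 37.0%, and in the deepest 826 WT cells, which held 5149 to 93350 UMIs, they were 64.5% (533 cells) and 65.9% (544 cells). In those deep cells an even spread would have given 69.8% and 67.4%.

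In WT cells the neighbouring genes were not found together more often than the counting error allows. Of the 686 thinned WT cells with a Ccl6 UMI, 155 also had Ccl9, which is 22.6% (19.5 to 25.9) against 21.6% of all cells. No other gene tracked Ccl6 or Ccl9 in WT cells at a Pearson r of 0.2 over the 3019 cells. In cells labelled IRF8KO, Ccl6 was left in 2.77% of cells (2.31 to 3.29), close to the 2.89% of an even spread. Ccl9 was left in 1.66% (1.31 to 2.08), against 2.06%, with a variance-to-mean ratio of 1.81 and an r of 0.23 with Lpl, which encodes lipoprotein lipase. In the 97 cells with many neutrophil transcripts at this depth, whose full median depth was 7057.5 UMIs, Ccl6 was found in 2 (2.06%, 0.251 to 7.25) and Ccl9 in 0, which allows up to 3.09%. The remaining share of Ccl6 lies within that interval and is not read as expression, and the share of Ccl9 over all cells lies under that limit. Without thinning, the cells with many neutrophil transcripts stood at 7.12 CPM of Ccl6 (2.61 to 15.5), from 6 UMIs. Their Ccl9 stood at 1.19 CPM (0.0300 to 6.61), from 1 UMI. The Ccl6 interval overlaps that of the cells labelled IRF8KO, and the Ccl9 interval lies below theirs (10.1 to 13.2). Neutrophils are known to make Ccl6, so they are not a clean measure of free RNA.

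The lower level was seen in every cluster with at least 50 cells of a library. Clusters were computed without any chemokine ligand and are numbered because no marker set named them. Ccl6 stood at 122 CPM in the 832 WT cells of cluster 0, at 159 CPM in the 2343 WT cells of cluster 1 and at 86.9 CPM in the 68 WT cells of cluster 2. In the 4 clusters with at least 50 cells labelled IRF8KO it ranged from 10.9 to 16.0 CPM. Ccl9 stood at 112.9, 135 and 65.2 CPM in those WT clusters and at 6.51 to 15.5 CPM in the others. Cluster 10, with 45 cells labelled IRF8KO, fewer than 50, lay above that range for Ccl9. It stood at 37.0 CPM (23.7 to 55.1) and held 10.9% of that library's Ccl9 UMIs. The main exception for Ccl9 was cluster 3, whose 37 cells labelled IRF8KO, also fewer than 50, stood at 269 CPM (189 to 371) and held 16.8%. Its 50 WT cells stood at 494 CPM (405 to 598) of Ccl9 and at 226 CPM (168 to 299) of Ccl6, and Ccl6 was at 43.6 CPM (16.0 to 94.9) in its cells labelled IRF8KO, so both genes were lower in that library within this mixed cluster too. Cluster 7, with 16 cells, was also mixed. The other clusters held cells of almost only 1 library, so there cluster and library cannot be told apart.

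Cxcl16 encodes a chemokine made as a membrane protein, which binds Cxcr6 and is released by the proteases Adam10 and Adam17. It lies at chr11:70453983-70459984 on the minus strand, has 5 exons and overlaps Zmynd15 on the other strand. The strand used in counting is not given in the sources used here, so reads of the overlap cannot be told apart. Zmynd15 had 71 and 219 UMIs.

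Cxcl16 was counted 958 times in WT cells, 51.7 CPM (48.4 to 55.0), and 2100 times in cells labelled IRF8KO, 110.6 CPM (106.0 to 115.5). The intervals do not overlap, and the log2 ratio was 1.10 (0.99 to 1.21), a level 2.14-fold higher. It was spread over many cells in both libraries. At 2000 UMIs it was found in 9.74% of WT cells (8.70 to 10.9), against 10.4% for an even spread, and in 17.9% of cells labelled IRF8KO (16.8 to 19.0), against 19.5%. The variance-to-mean ratios were 1.12, the lowest of the 6 genes with 10 CPM or more in WT cells, and 1.23, which only Ccl6 undercut in the other library. Unthinned shares were 19.9% and 28.4%. In cells with many neutrophil transcripts a UMI was found in 0 of 97 when thinned and in 3.06% of 98 when not. Over the clusters with at least 50 cells labelled IRF8KO its level ran from 64.0 CPM in cluster 4 to 157 CPM in cluster 6, which held 48.8% of its UMIs, and it was 182 CPM in the 37 such cells of cluster 3. Its receptor gene Cxcr6 had 2 and 5 UMIs. Adam10 was at 296.9 and 157.0 CPM (log2 ratio -0.92) and Adam17 at 173 and 87.2 CPM (-0.99), so the shedding proteases had lower levels where the ligand had a higher one.

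Ccl2, Ccl7 and Ccl12 encode monocyte chemoattractants that act through Ccr2. They lie on the plus strand of chromosome 11 at chr11:82035571-82037453, chr11:82045712-82047525 and chr11:82101845-82103400, with 3 exons each. Gm17268 overlaps Ccl2 on the other strand and had 0 UMIs in both libraries.

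Ccl12 was counted 1378 times in WT cells, 74.3 CPM (70.4 to 78.3), and 2440 times in cells labelled IRF8KO, 128.6 CPM (123.5 to 133.8). The library labelled IRF8KO was the high one, with a log2 ratio of 0.79 (0.69 to 0.89), below the 2-fold line. Cluster 5, described below, held 49.3% of the Ccl12 UMIs of that library. Its other clusters with at least 50 cells stood at 38.8 to 94.9 CPM, and those of WT cells at 65.2 to 97.0 CPM. The higher level is thus not read as a difference across all cells. Few cells held much of the transcript in the library labelled IRF8KO, and part of it in WT cells. In WT cells it was found in 10.1% of cells (9.02 to 11.2), against 13.4% for an even spread, and the top 1% of cells held 33.3% of its UMIs. In cells labelled IRF8KO it was found in 8.76% (7.95 to 9.62), against 21.9%, and the top 1% held 55.0%. The variance-to-mean ratio was 5.71 in WT cells and 13.8 in cells labelled IRF8KO, rank 7 and rank 6 of all genes, a measure that also grows with the level. The WT ratio leans on very few cells. A single WT cell held 35 of the 433 thinned UMIs, and 0.1% of WT cells held 15.7%. It took 88 WT cells to reach 50% of the UMIs, and 36 cells labelled IRF8KO. Cells with at least 3 UMIs numbered 17 of 3019 and 86 of 4509. The share of cells with a UMI and the CPM point in opposite directions, and no order between libraries is read from the share. Unthinned shares were 19.9% and 12.2%. Cells with many neutrophil transcripts had a UMI in 0 of 97 when thinned and in 3.06% of 98 when not.

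Cluster 5 held much of the Ccl12 in the library labelled IRF8KO. It has 313 cells of that library, 6.25% of its cells, and its leading genes were Cxcl10, Rsad2, Iigp1 and Ifit3b, which belong to the interferon response. Ccl12 reached 1099 CPM (1038 to 1163) there and 38.8 to 94.9 CPM in the 3 other clusters with at least 50 cells of that library. Cluster 5 held 49.3% of the Ccl12 UMIs, 31.0% of the Ccl2 UMIs and 35.4% of the Ccl4 UMIs. In WT cells Ccl12 ranged from 65.2 to 97.0 CPM over the 4 clusters with at least 50 cells. The 2 WT cells that fell in cluster 5 held 71 Ccl12 UMIs, 5.15% of the WT total and a level of 7112 CPM (5555 to 8971). The plot of levels by cluster shows the 313 cells labelled IRF8KO as a single tall bar and leaves out those 2 WT cells.

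**Figure D3:**
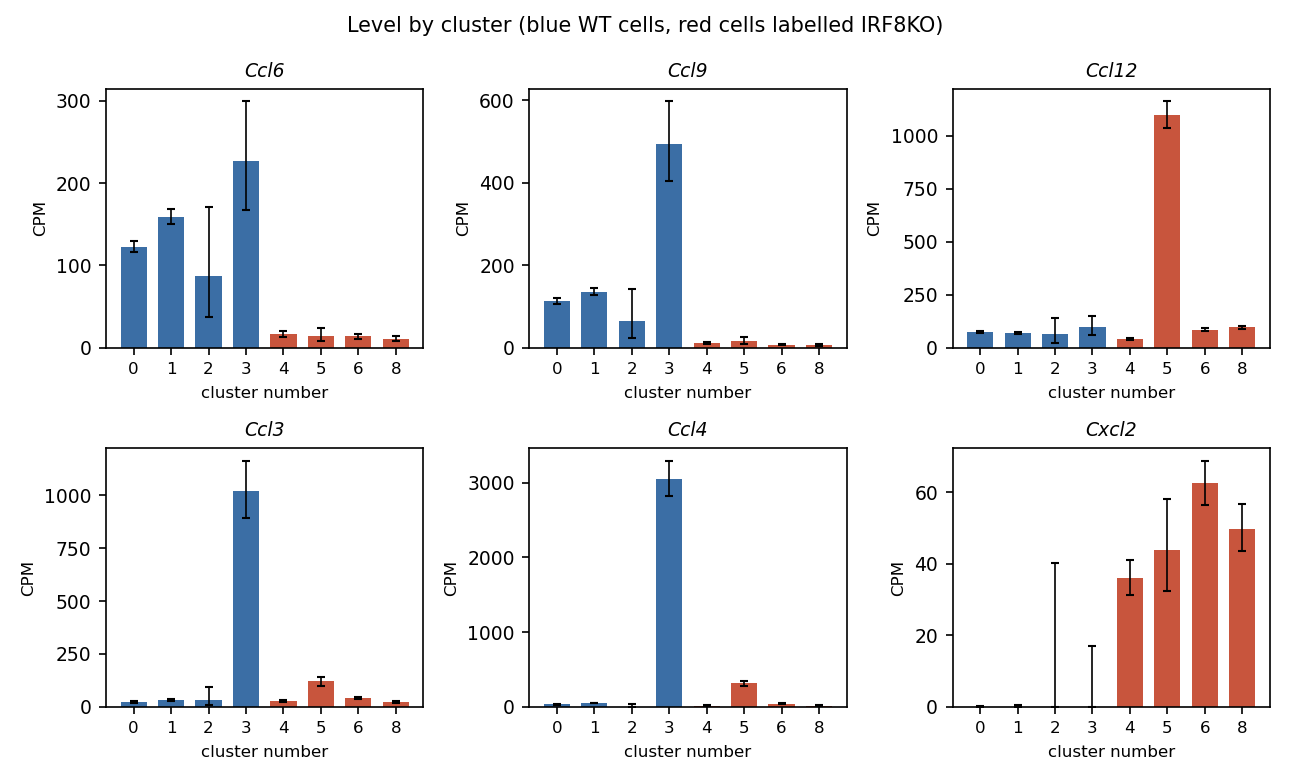
Level in CPM of 6 of the genes in each cluster with at least 50 cells of a library, for WT cells (blue, clusters 0 to 3) and cells labelled IRF8KO (red, clusters 4, 5, 6 and 8), with exact 95% Poisson intervals and a separate vertical scale for each gene. Ccl12 stands at 1099 CPM in cluster 5, Ccl3 and Ccl4 at 1021 and 3055 CPM in cluster 3 of WT cells, and Cxcl2 lies between 35.9 and 62.4 CPM in all 4 red clusters.

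The same grouping appeared cell by cell. Over the 4509 thinned cells labelled IRF8KO, the genes outside the 9 that were most like Ccl12 were Cxcl10 (r = 0.39), a ligand of Cxcr3, then Rsad2 (r = 0.37) and Ifit2 (r = 0.35), both antiviral genes. The 86 cells with at least 3 Ccl12 UMIs had a median of 0.40% of their UMIs in a list of 24 interferon-response genes (quartiles 0.10% and 1.83%). The other cells had a median of 0.10% (quartiles 0.05% and 0.15%). The quartile ranges meet, so not every Ccl12-rich cell was rich in interferon genes. In WT cells no gene outside the 9 reached an r of 0.2 with Ccl12, and Ccl2 did (r = 0.21). The 17 Ccl12-rich WT cells had a median of 0.05% in that list, against 0 in the other WT cells. Of the 24 genes, 21 reached 10 CPM, with a median log2 ratio of 3.16. Of these 21, 18 were at least 2-fold higher in the library labelled IRF8KO and 0 lower, against 5.61% and 9.28% of all genes. The largest ratios in the list were those of Ifi207 (6.47), Rsad2 (5.46) and Ifit3b (4.62).

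Ccl2, the classic monocyte attractant, was scarce. It was counted 119 times in WT cells, 6.42 CPM (5.32 to 7.68), and 200 times in cells labelled IRF8KO, 10.5 CPM (9.13 to 12.1), a log2 ratio of 0.72 (0.38 to 1.06). It was found in 15 thinned WT cells (0.497%) and 48 thinned cells labelled IRF8KO (1.06%), and 9 cells held 50% of its UMIs in the latter. Unthinned shares were 1.39% and 1.74%, against 0 of 98 cells with many neutrophil transcripts. Of the 48 cells, 22 also had Ccl12, which is 45.8% against 8.76% of all cells. In WT cells its r was 0.45 with Ccl4 and 0.37 with Ccl3. Outside the 9 genes the most similar were Csf1 (r = 0.27), which encodes a macrophage growth factor, and Atf3 (r = 0.25), a stress-induced transcription factor. These WT values of r rest on the 15 cells with a Ccl2 UMI, and 2 cells held 50% of the Ccl2 UMIs. In cells labelled IRF8KO its r was 0.23 with Ccl4 and 0.22 with Ccl12, and outside the 9 genes it was highest with Rsad2 (r = 0.20).

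Ccl7 was near the limit of the data. It had 15 UMIs in WT cells (0.809 CPM) and 11 in cells labelled IRF8KO (0.580 CPM), and the log2 ratio of -0.48 had an interval from -1.75 to 0.74. All 15 WT UMIs came from 2 cells, 1 of which held 12. The 11 UMIs of the other library came from 8 cells, and 6 of them lay in cluster 5. Its r of 0.31 with Cxcl10 and with the interferon-induced Iigp1 rests on 1 thinned cell. No difference was detectable at this depth.

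Ccl3 and Ccl4 encode macrophage inflammatory proteins, which attract monocytes and T cells, and Ccl3 binds Ccr1. They lie back to back on chromosome 11, Ccl3 at chr11:83647844-83649355 on the minus strand and Ccl4 at chr11:83662584-83664683 on the plus strand, with 3 exons each. Ccl3 was counted 708 times in WT cells, 38.2 CPM (35.4 to 41.1), and 751 times in cells labelled IRF8KO, 39.6 CPM (36.8 to 42.5). The intervals overlap, and the log2 ratio was 0.05 (-0.10 to 0.20). Ccl4 was counted 1401 times in WT cells, 75.6 CPM (71.6 to 79.6), and 970 times in the other library, 51.1 CPM (47.9 to 54.4), a log2 ratio of -0.56 (-0.68 to -0.44). The Ccl4 intervals do not overlap, but the direction hung on a few cells. Without cluster 3, which has 50 WT cells and 37 cells labelled IRF8KO, the Ccl4 ratio was 0.07 and the Ccl3 ratio 0.44. Cluster 3 was singled out after its values had been seen. Cluster 5 was left in for both ratios, and it held 35.4% of the Ccl4 UMIs labelled IRF8KO, at 313 CPM. The ratio of 0.07 is therefore not read as the level of the remaining cells at large.

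Both were held by very few cells. At 2000 UMIs Ccl4 was found in 2.82% of WT cells (2.26 to 3.47), against 16.0% for an even spread, and 5 of 3019 cells held 50% of its UMIs. In cells labelled IRF8KO it was found in 2.24% (1.83 to 2.72), against 9.44%, and 10 of 4509 cells held 50%. A single WT cell carried 173 Ccl4 UMIs before thinning and a single cell labelled IRF8KO carried 113. The variance-to-mean ratio of Ccl4 was 35.5 in WT cells, rank 2 of 8468 genes, and 16.9 in cells labelled IRF8KO, rank 5 of 8170. Ccl3 was somewhat wider, in 3.21% of WT cells (2.61 to 3.91) and 4.83% of cells labelled IRF8KO (4.23 to 5.50), with ratios of 13.7 and 6.19. Unthinned shares were 6.60% and 7.17% for Ccl3 and 4.27% and 3.75% for Ccl4, against 0 of 98 cells with many neutrophil transcripts for both genes.

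**Figure D4:**
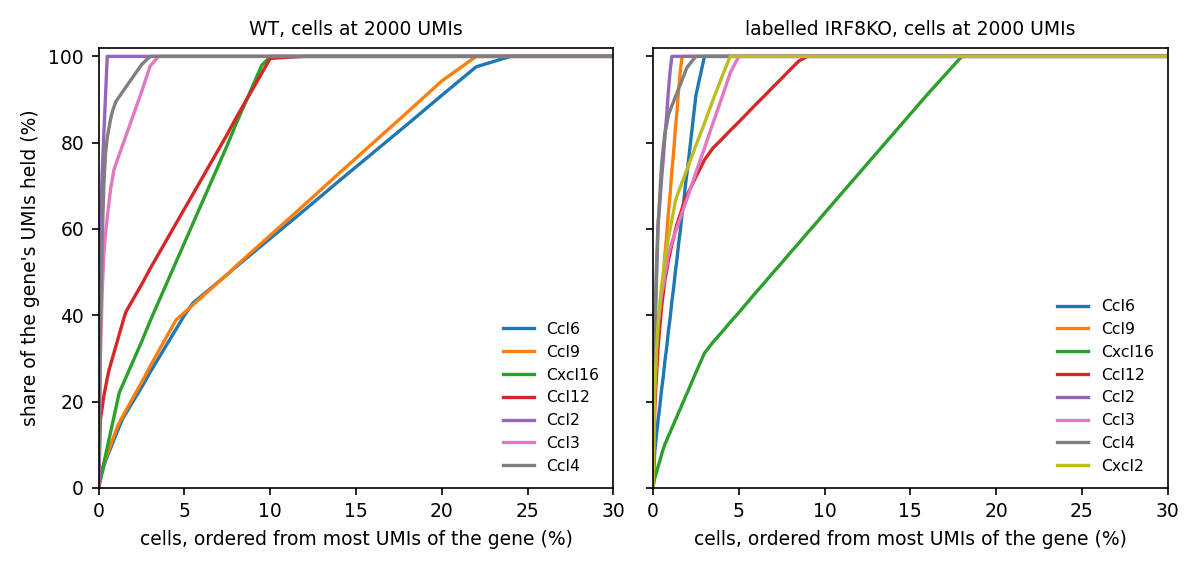
Share of the UMIs of each gene (vertical, %) held by cells ordered from most to fewest UMIs of that gene (horizontal, % of cells at 2000 UMIs), for WT cells (left) and cells labelled IRF8KO (right); Ccl7 is left out in both and Cxcl2 in WT cells, for few or no UMIs. Each curve ends at 100% where cells with a UMI end, so its width also follows the level; in WT cells 1% of cells held 89.7% of Ccl4 and 12.5% of Ccl6.

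Most of the few cells rich in Ccl3 were also rich in Ccl4. In WT, 14 of 21 cells with at least 3 Ccl3 UMIs also had at least 3 of Ccl4, which is 66.7% (43.0 to 85.4), and these 14 were 58.3% of the 24 Ccl4-rich cells. In the library labelled IRF8KO it was 16 of 22 cells, 72.7% (49.8 to 89.3), and these 16 stand against 32 Ccl4-rich cells. Over all thinned cells the r of Ccl3 with Ccl4 was 0.71 in WT and 0.54 in the other library. The WT cells of cluster 3, 1.51% of WT cells, stood at 1021 CPM of Ccl3 and 3055 CPM of Ccl4 and held 31.2% and 47.2% of those UMIs. Its leading genes besides these were Lpl, Gas2l3, Gadd45b and Atf3, a mix that was given no name. Cluster 3 also had the highest WT levels of Ccl9, at 494 CPM, and of Cxcl16, at 268 CPM.

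Other genes of early activation went with Ccl4. Outside the 9 genes, Atf3 (r = 0.43), Id2 (r = 0.29) and Cd83 (r = 0.24) were most like it in WT cells, and Atf3 (r = 0.38) and Cd83 (r = 0.23) were most like Ccl3. Atf3 and Id2 encode transcriptional regulators and Cd83 a surface protein of activated antigen-presenting cells. In cells labelled IRF8KO no gene outside the 9 reached an r of 0.2 with Ccl4 or Ccl3. The highest there was Atf3, at 0.19 with Ccl4 and 0.17 with Ccl3. The 24 WT cells with at least 3 Ccl4 UMIs had a median of 0.25% of UMIs in 25 NF-kB and cytokine early genes, against 0.10% in the rest. In the library labelled IRF8KO the medians were 0.275% in 32 such cells and 0.10% in the rest. Cells rich in both Ccl4 and Ccl12 numbered 7 there, which is 21.9% of the 32 Ccl4-rich cells and 8.14% of the 86 Ccl12-rich cells, against 1.91% and 0.710% of all cells.

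Cxcl2 encodes a chemokine that draws neutrophils through Cxcr2, and it lies at chr5:90903871-90905938 on the plus strand, with 4 exons. It had 0 UMIs in 3304 WT cells, where 3 counts would be 0.162 CPM, and 958 in cells labelled IRF8KO, 50.5 CPM (47.3 to 53.8). Set against those 3 counts the level was at least 312-fold higher, a log2 bound of 8.29, and the exact 95% lower limit of the log2 ratio was 7.98. The bound was 6.57 with cells thinned to 2000 UMIs. WT barcodes that the filter had left out held 1 Cxcl2 UMI. No WT cell of any depth had a UMI. A count of 0 in 3304 cells allows up to 0.0908% of cells with a UMI, which limits cells with a UMI and not cells that express the gene. Cxcl1, a close relative with the same receptor, had 0 and 307 UMIs, 16.2 CPM in the library labelled IRF8KO, a log2 bound of 6.64. Cxcl3, the third close relative, had 0 and 17 UMIs and is named after its values were seen.

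The 3 genes lie on the plus strand of chromosome 5, and their promoters are shown because they went the same way and because each holds the same kappaB motif. The windows run from 200 to 51 bases before the start (RefSeq, GRCm38.p6), at chr5:90903699-90903848 for Cxcl2, chr5:90891045-90891194 for Cxcl1 and chr5:90785901-90786050 for Cxcl3. Capitals mark GGGAATTTCC, the letters matched.
Cxcl2: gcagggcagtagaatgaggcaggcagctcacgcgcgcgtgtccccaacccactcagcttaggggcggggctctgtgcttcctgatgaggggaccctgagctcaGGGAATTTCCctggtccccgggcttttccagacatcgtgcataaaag
Cxcl1: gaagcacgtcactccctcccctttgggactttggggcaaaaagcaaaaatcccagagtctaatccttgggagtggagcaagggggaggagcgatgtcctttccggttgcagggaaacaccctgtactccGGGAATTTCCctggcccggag
Cxcl3: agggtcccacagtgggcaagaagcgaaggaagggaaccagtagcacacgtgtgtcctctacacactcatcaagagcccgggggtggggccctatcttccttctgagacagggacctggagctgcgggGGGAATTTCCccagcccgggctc
The match runs from -97 to -88 in Cxcl2, from -71 to -62 in Cxcl1 and from -73 to -64 in Cxcl3, counted from the RefSeq start. In Cxcl2 the last base before that start is chr5:90903898, which lies inside the gene position given above (from 90903871). Counted from that gene position, the Cxcl2 match would lie closer. In Cxcl1 the last base is chr5:90891244 and the gene position begins at 90891241, so its match would also lie closer, by a few bases. On either strand, 28 of all 32851 windows of 250 bases (0.0852%) hold exactly these letters, and 0.980% hold a looser kappaB motif with 2 free positions. Both were chosen after the Cxcl2 window had been seen. Windows were at hand for Ccl3, Ccl6, Ccl9, Ccl12 and Cxcl2, 5 of the 9 genes, and none of the first 4 holds either. Of the 7 windows searched, the core GAAANNGAA of the interferon-stimulated response element (7.13% of all windows) was matched in Ccl3 alone and the core GGAANNGAA of the Ets and IRF composite element (6.99%) in Cxcl3 alone. TATAAA (12.4%) was matched in Ccl9, Ccl12 and Cxcl3. A match is a description of letters and says nothing of binding.

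Within the library labelled IRF8KO, Cxcl2 was held by few cells but was not tied to 1 cluster. At 2000 UMIs it was found in 4.46% of cells (3.87 to 5.10), against 9.02% for an even spread, with 60.3% of UMIs in the top 1% of cells and a variance-to-mean ratio of 6.83. The unthinned share was 7.23%. Cells with many neutrophil transcripts, the type known to make Cxcl2 on activation, had 1 UMI in 98 cells (1.02%). The level was 35.9 to 62.4 CPM in the 4 clusters with at least 50 cells. Of the 201 cells with a Cxcl2 UMI, 33 had Ccl12 (16.4%, against 8.76% of all cells). Of the 34 cells with at least 3 Cxcl2 UMIs, 3 had at least 3 of Ccl4 (8.82%, 1.86 to 23.7, against 0.710% of all cells). No gene reached an r of 0.2 with it. Those 34 cells had a median of 0.225% of UMIs in the NF-kB and cytokine early genes, against 0.10% in the rest.

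Whether neighbouring genes shared a direction differed between loci. From Ccl5 to Ccl4, over 137 kb of chromosome 11, the log2 ratios ran 2.87 for Ccl5, -3.44 for Ccl9, -3.32 for Ccl6, 0.05 for Ccl3 and -0.56 for Ccl4. Ccl9 and Ccl6, the low pair, thus lie between a gene that was higher and 2 genes past neither 2-fold line. Around Ccl2, Ccl7 and Ccl12, the genes Ccl1, Ccl8 and Ccl11 had 0 UMIs in both libraries. On chromosome 5, Pf4, Cxcl1 and Cxcl2 were all higher in the library labelled IRF8KO. Ppbp (0 and 73 UMIs) and Cxcl3 (0 and 17 UMIs), both under 10 CPM, went the same way. Cxcl5 and Cxcl15 in the same stretch had 0 UMIs in both libraries and so show no direction.

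Other ligands gave the wider setting. Of 28 listed, 27 were in the count tables, 16 had a UMI and 8 reached 10 CPM. Of these 8, 7 were at least 2-fold higher in the library labelled IRF8KO and 0 lower, with a median log2 ratio of 2.86. The shares of all genes were 5.61% higher and 9.28% lower. Pf4, platelet factor 4, had 9 and 27746 UMIs, 0.485 and 1462 CPM, and is itself 1 of the 11 border macrophage markers. Cxcl14 had 4 and 2836 UMIs, 0.216 and 149 CPM. The interferon-induced Cxcr3 ligands Cxcl10 (4.69 and 34.0 CPM) and Cxcl9 (3.24 and 13.3 CPM), the T cell attractant Ccl5 (8.52 and 62.2 CPM) and the eotaxin Ccl24 (10.5 and 26.3 CPM) were also higher. Ccl25, a ligand of Ccr9, stood at 42.3 and 39.6 CPM, and its gene overlaps Elavl1 on the other strand. The 9 genes together made up 0.0511% of WT UMIs and 0.0417% of those labelled IRF8KO, while the other ligands made up 0.00734% and 0.181%, most of the latter Pf4.

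Receptor genes differed in both directions. Ccr1, the receptor for Ccl6 and Ccl9, was at 42.5 and 3.06 CPM, a log2 ratio of -3.80, so receptor and ligands were low in the same library. The fractalkine receptor Cx3cr1 was at 5380 and 2501 CPM (-1.10). Ccr2, the receptor for Ccl2, Ccl7 and Ccl12 and a monocyte marker, was at 5.55 and 15.6 CPM (1.49). The scavenger receptor Ackr3 was at 2.27 and 10.7 CPM (2.25) and the chemerin-binding Ccrl2 at 11.9 and 25.4 CPM (1.10).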

How the data were processed

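The values deposited by the authors are UMI counts, 1 matrix of genes by barcodes for each of 2 libraries. Per the submitters' processing notes, Cell Ranger 3.1 and the mm10 build were used, and the matrix headers name version 3.1.0. The extract protocol also names a kit for full-length RNA, but the deposited values have the form of droplet data.

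Barcodes were kept with at least 1000 UMIs, 500 genes and at most 10% mitochondrial UMIs, and with under 2% of UMIs in Camp, Ngp, S100a8, S100a9, Lcn2 and Ltf. This left 3304 of 3504 and 5007 of 5303 barcodes. Doublet scores called 0 and 3 cells, so the caller was taken as not working and no doublet was removed. UMIs were summed per library, and ratios were set against 3 counts where a library had 0. Genes under 10 CPM in both libraries entered no count. Breadth used cells thinned to 2000 UMIs. Clusters came from scanpy 1.11.5 (2000 variable genes without chemokine ligands, 30 components, 15 neighbours, Leiden resolution 0.5), and TMM factors from edgeR 4.0.16. Gene positions are from GENCODE (GRCm38) and promoters from RefSeq (GRCm38.p6). The scripts were tested on simulated data.

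Named genes were the 9 chemokine genes, other ligands and receptors with at least 10 CPM, the 3 genes of each list with the largest ratio, and up to 3 genes outside the 9 per library with the highest r of log2(1 + UMIs), of at least 0.2. The genes and lists were chosen with earlier results of these data known. Cxcl11 was not analysed here, and 1 receptor gene is not reported here. With 1 library per condition, depth sets counting error only.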

Additional observations from a re-analysis of the deposited data

Results flagged for a closer look

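Cxcl16 appeared in barcodes that the filter had left out and that enter no comparison. The 198 such barcodes of the library labelled IRF8KO held 13 Cxcl16 UMIs in 12 barcodes, a level of 74.3 CPM (exact 95% Poisson interval 39.6 to 127.1). The 200 such WT barcodes held 0 Cxcl16 UMIs, with an upper bound of 22.6 CPM. Ccl4 went the other way, with 19 UMIs in left-out WT barcodes and 0 in those labelled IRF8KO. These barcodes are shallow, with 163086 and 174864 UMIs in all.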

How the results depend on the processing

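The median log2 ratio of the members with 10 CPM or more, 0.38, was 0.64 with TMM scaling, 0.66 relative to the median of all genes and 0.051 with no CPM minimum. It changed sign to -0.042 with equal weight for each cell and to -0.037 with cells thinned to 2000 UMIs, where 7 members were left. Thinning left 1 member at least 2-fold higher, since Cxcl16 had a ratio of 0.99. Ccl12 passed the 2-fold line with TMM scaling (1.04) and relative to all genes (1.07). Over all alternatives the ratio ranged from 5.69 to 8.56 for Cxcl2, from 0.99 to 1.38 for Cxcl16, from 0.71 to 1.07 for Ccl12 and from 0.53 to 0.99 for Ccl2. No alternative left out cluster 5, which held 49.3% of the Ccl12, 35.4% of the Ccl4 and 31.0% of the Ccl2 UMIs labelled IRF8KO. Of the ratios of single members, 83 moved by less than counting error, 24 moved by more and 1 whose interval excluded 0 changed sign, that of Ccl4 without cluster 3 (0.067, chosen after seeing the data). Ccl3, whose interval includes 0, was at -0.042 with equal weight, -0.037 thinned and -0.011 over all kept cells. The immediate early median of -0.16 became 0.19 with TMM scaling, 0.086 without mitochondrial and ribosomal protein genes and 0.12 relative to all genes. The cause of these shifts was not tested. No paired analysis was possible because each condition is 1 library.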

Other observations

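Early activation genes differed in both directions. Of 25 NF-kB and cytokine early genes, 22 reached 10 CPM, 6 of them at least 2-fold higher in the library labelled IRF8KO and 2 lower, with a median log2 ratio of -0.08, or 0.19 relative to all genes. Over all genes 5.61% were as much higher and 9.28% as much lower. The cytokine gene Il6 was at 10.4 and 0.211 CPM (-5.63), while Il1b was at 3.99 and 23.3 CPM (2.54) and the survival gene Bcl2a1d at 1.94 and 23.8 CPM (3.62). Bcl2a1d has near-identical copies, so its count is uncertain. Of 20 immediate early genes, 13 reached 10 CPM. Fos was at 2.43 and 11.9 CPM (2.29), Ier2 at 14.5 and 49.4 CPM (1.77) and Klf2 at 41.7 and 9.80 CPM (-2.09).

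Levels by depth separated the genes further. In WT cells Ccl6 ranged from 125.8 to 167 CPM over 4 equal bins of cells ordered by depth, while Ccl4 ranged from 11.1 to 208.6 CPM, with its highest level in the third bin. In cells labelled IRF8KO, Ccl12 was at 45.6 CPM in the shallowest bin and 157 CPM in the deepest, and Ccl6 at 13.3 to 14.7 CPM throughout.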
